A study of Mus musculus with 6 samples.

Results

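The array of fibroblasts induced toward parvalbumin neurons for 14 days was set against the array of uninduced mouse embryonic fibroblasts (MEF). Both arrays were chosen by their sample titles, and they are 2 of the 6 samples of the series. Each is a single array of a bulk culture, so no difference below has a replicate check, no test was possible, and every value describes these 2 arrays. All 6 samples are labelled as PV-GFP transgenic mice of strain C57BL/6 and as embryos of 13.5 days. The promoter of the transgene, the number of embryos behind a culture and whether they were pooled are not given in the labels. Fibroblasts were cultured in D10 medium, infected with adenovirus and left to become neurons, and the genes carried by the virus are not named. The sample labelled MEF carries the same infection text as the induced samples, so the labels do not say whether its cells met any virus. The other samples are induced cultures after 3 and 7 days, green fluorescent cells sorted from a 14-day culture, and cells labelled endogenous parvalbumin neurons, and they appear here only as values beside the pair. The question of the comparison is how the expression profile of the cultures stood after the longest induction.

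Fibroblasts are connective-tissue cells that make collagen and other matrix and divide quickly in early culture. In direct conversion to neurons, introduced regulators are meant to stop division, lower the matrix program and bring up neuronal genes without a stem cell stage. Parvalbumin interneurons are fast-spiking inhibitory cells that make GABA with the enzymes encoded by Gad1 and Gad2 and load it into vesicles with the transporter encoded by Slc32a1. Cells that sense viral nucleic acid secrete interferons, which act through the factors encoded by Irf7, Irf9 and Stat genes to raise a large set of antiviral genes.

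Values are log2 intensities of 22180 genes, each read from 1 probe set. A floor was set at 5.01, the median over probe sets other than controls. A gene counted as measured when at least 1 of the 2 arrays was above it, and where 1 of the values was floored the fold is given as "at least". Of 13414 measured genes, 466 (3.47%) stood at least 2-fold higher at day 14 and 279 (2.08%) stood at least 2-fold lower. The median log2 difference was 0.07, and 94.4% of measured genes lay within 2-fold. In 70 of the higher genes the MEF value was under the floor, as was the day 14 value in 38 of the lower ones. At a threshold of 4-fold, 72 genes were higher and 31 lower. Among 367 genes with another probe set above the floor on both arrays, the differences read by the brightest 2 probe sets gave a technical spread of 0.43 on the log2 scale. That spread holds no variation between cultures. Of 20 such genes that the first probe set placed past 2-fold, the other probe set had the same direction in 13. When each array was centred instead on 27 housekeeping genes, whose medians were 8.95 at day 14 and 8.48 in MEF, the difference of a gene above the floor moved down by 0.48, that of a floored gene by less, and the median of all genes became -0.35. The counts were then 185 higher and 1084 lower, so that 14.6% of called genes were higher against 62.6% in the main setting. The 27 housekeeping genes themselves had a median difference of 0.27 before this centring and -0.21 after it. The shift of 0.48 between the array medians thus overshot their own median difference. Directions below are therefore to be read against the median of all genes, and most lists are given under both scalings. List counts in the main setting are to be read beside the 3.47% higher and 2.08% lower of all measured genes.

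The genes furthest above MEF belonged to several unrelated families. Fmo2, a flavin monooxygenase that oxidises foreign compounds, had 5.44 in MEF and 10.42 at day 14, a 31.5-fold difference. Folh1, which encodes the folate hydrolase also called prostate-specific membrane antigen, had 4.32 and 9.65, at least 24.9-fold higher. Calb2 encodes calretinin, a calcium-binding protein best known from another class of interneuron, and had 2.44 and 9.45, at least 21.7-fold higher. These 3 genes were already above 8 on the day 3 array, where Fmo2 had 8.03, Folh1 9.58 and Calb2 8.09. Ankrd1, a nuclear ankyrin-repeat protein induced by mechanical stress, had 7.50 in MEF, then 11.86, 9.69 and 11.55 on days 3, 7 and 14, so both its highest values were at day 3 and day 14. Mup3, a major urinary protein gene, differed from these in time, with 4.72 in MEF, then 4.98, 8.54 and 8.75 on days 3, 7 and 14. Of the other genes in the first 15, Prl8a9 and Prl3a1 are placental members of the prolactin family, and Bex1 and Pcdh10 are best known from the nervous system. Bex1 had 4.58 in MEF and 8.86 at day 14, and Pcdh10, a protocadherin, had 5.05 and 8.61. Mbd1, a protein that binds methylated DNA, had 6.64 and 10.13, and Pappa2, a protease of insulin-like growth factor binding proteins, had 5.95 and 9.24. Several of these genes were also far above MEF on the array labelled endogenous parvalbumin neurons, with 9.52 for Fmo2, 10.01 for Folh1 and 9.43 for Mup3. Prl8a9, by contrast, had 5.37 in MEF and 5.75 on that array. The Mup and prolactin families hold near-identical copies whose probes may share signal, so the single member named is uncertain.

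**Figure D1:**
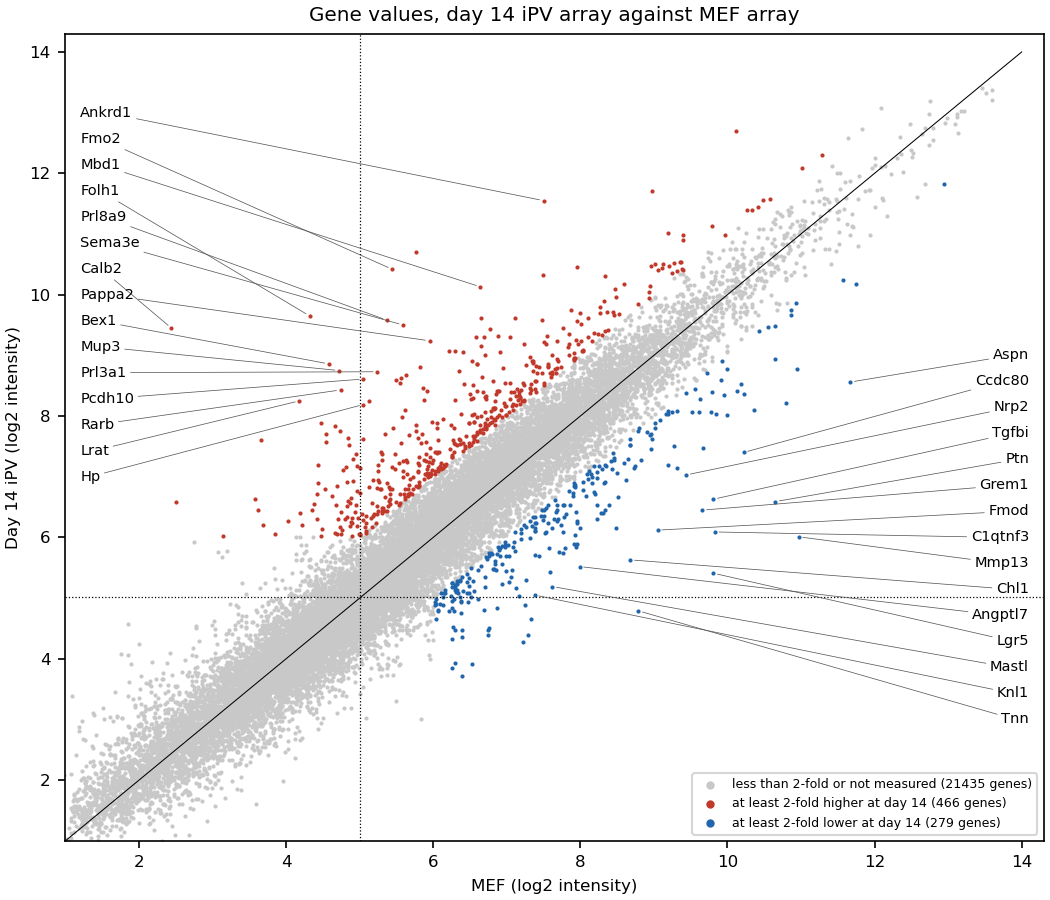
Each point is 1 of 22180 genes, with its log2 intensity on the MEF array (x axis) and on the day 14 array (y axis). Red points are the 466 genes at least 2-fold higher, blue points the 279 at least 2-fold lower, dotted lines mark the floor of 5.01, and the named genes are the 15 furthest in each direction.

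On the lower side, matrix and secreted proteins of fibroblasts led the list. Mmp13, a collagenase, had 10.97 in MEF and 6.01 at day 14, 31.1-fold lower. Lgr5, a receptor for R-spondins, had 9.81 and 5.41, 21.1-fold lower, although its other probe set differed by only -0.59. Ptn, the heparin-binding growth factor pleiotrophin, had 10.65 in MEF, then 9.29, 9.12 and 6.59 on days 3, 7 and 14. Most of the difference in Ptn thus lay between the day 7 and day 14 arrays, whereas Mmp13 was already at 6.26 on the day 3 array. C1qtnf3, a secreted relative of complement C1q, had 9.83 and 6.09, and Chl1, a neural cell adhesion molecule, had 8.68 and 5.63. Ccdc80, a matrix protein, had 10.22 and 7.40. Mastl and Knl1, a mitotic kinase and a kinetochore scaffold, were 5.42-fold and 5.05-fold lower. Within the first 15, Ccdc80 and Fmod were read by another probe set as well, with differences of -2.72 and -2.40 at the smaller of the readings.

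**Figure D2:**
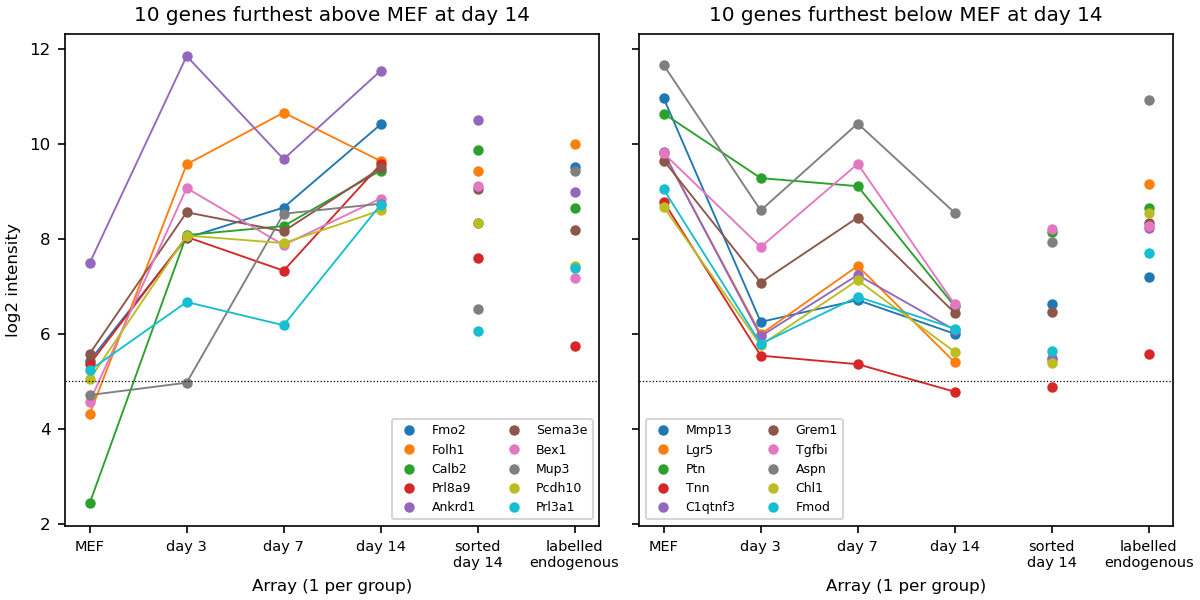
Log2 intensity (y axis) of the 10 genes furthest above (left) and below (right) MEF at day 14, on each of the 6 arrays (x axis); lines join MEF, day 3, day 7 and day 14, and the dotted line is the floor of 5.01. Mup3 was still under the floor at day 3, when the other 9 genes on the left were above it, and Ptn on the right stayed above 9 until day 7.

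Markers of the labelled cell type were checked first, because the day 14 sample is titled as neurons. Pvalb, which encodes parvalbumin, had 5.23 in MEF and 5.80 at day 14. Gad1 had 5.19 and 4.93, and Gad2 4.92 and 4.61. Slc32a1 had 4.82 and 5.21. None of these 4 genes differed 2-fold, and Gad1 and Gad2 were under the floor at day 14. Dcx, a microtubule protein of young neurons, was under the floor on both arrays, with 3.11 and 4.03. Tubb3, a neuronal tubulin, had 5.69 and 5.77, and Rbfox3, a splicing factor of mature neurons, had 5.71 and 6.06. Col1a1, which encodes 1 of the chains of type I collagen, read 12.31 in MEF and 12.25 at day 14. Col1a2, the other chain, had 12.10 and 11.59, and Prrx1, a mesenchymal transcription factor, had 10.35 and 10.43. The defining markers of parvalbumin neurons were therefore at or near the floor on the day 14 array, and fibroblast genes were far above it. Summed on the linear scale over 32 genes, the list of GABAergic and parvalbumin interneurons had 1127 in MEF and 1303 at day 14. The array labelled endogenous parvalbumin neurons had 1244. In that order, only 14, 16 and 17 of the 32 genes were above the floor. The sums thus hold many genes at background level and cannot show likeness between arrays. The endogenous-labelled array also had a collagen sum of 23662, beside 25087 in MEF and 19670 at day 14. Its pan-neuronal sum was 4803, beside 4673 in MEF and 4709 at day 14. In a bulk culture, fewer cells of a type and less RNA per cell cannot be told apart.

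**Figure D3:**
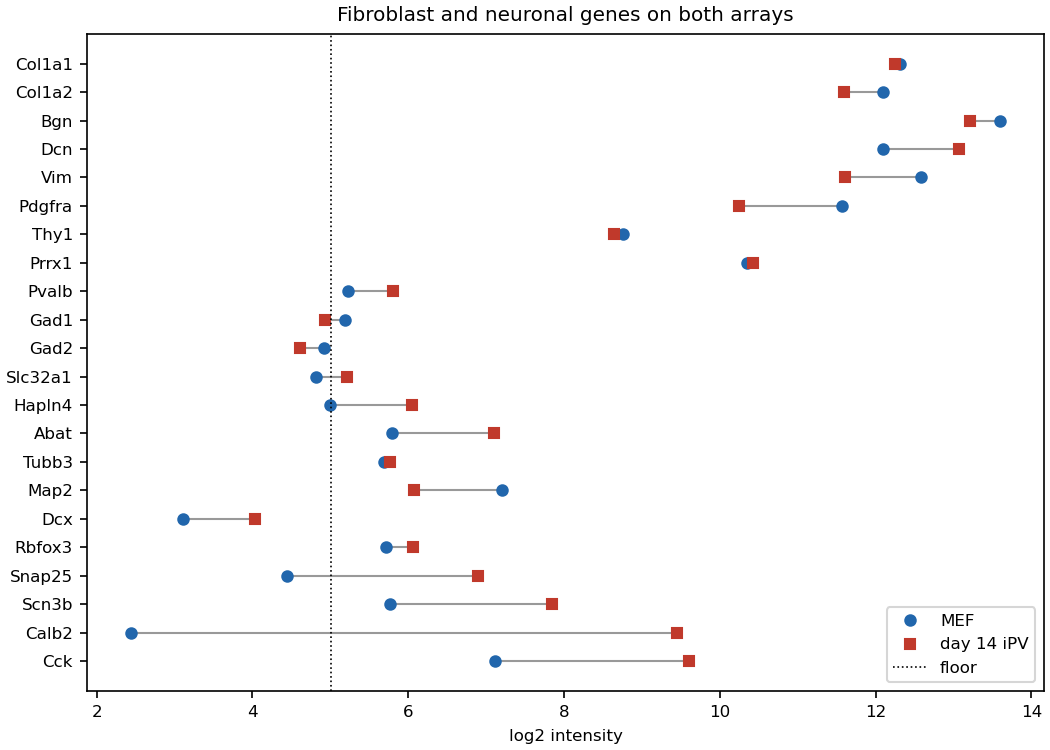
Log2 intensity (x axis) on the MEF array (circles) and the day 14 array (squares) for 8 genes of fibroblasts or matrix, listed first, and 14 neuronal genes; the dotted line is the floor of 5.01. The fibroblast genes lay above 8 on both arrays, while Pvalb, Gad1, Gad2, Slc32a1 and Dcx lay below 6.

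A few neuronal genes passed 2-fold, to be read beside the 3.47% higher and 2.08% lower of all measured genes. Of 19 measured genes of GABAergic and parvalbumin interneurons, 2 passed 2-fold upward and 0 downward. The list median was 0.09, or -0.16 after housekeeping centring, where 0 of 20 were higher and 2 lower. The 2 higher genes of the main setting were Abat, the enzyme that breaks down GABA, with 5.79 and 7.10, and Hapln4, a link protein of perineuronal nets, with 4.99 and 6.05. Among 33 measured pan-neuronal genes, Snap25 was the one higher gene and Map2 the one lower gene, and the median of 0.20 became -0.17 after housekeeping centring, where 1 of 34 was higher and 3 were lower. Snap25, a fusion protein of synaptic vesicles, had 4.44 in MEF, then 6.00, 6.44 and 6.90 on days 3, 7 and 14, and 8.05 in the sorted cells. Map2, which stabilises microtubules in dendrites, read 7.20 in MEF against 6.07 at day 14. Scn3b, a sodium channel subunit, had 5.77 and 7.85 and was the only one of 13 measured channel and receptor genes past 2-fold. The median of that list, 0.17, became -0.28 after housekeeping centring, where 1 of 15 was higher and 1 lower. Cck, the cholecystokinin peptide of another interneuron class, had 7.11 and 9.61, 5.63-fold higher. Penk, the precursor of enkephalin, was lower, with 6.94 and 5.56. Among 22 measured proneural and Notch genes only Dll3, a Notch ligand, passed 2-fold, at 4.88 and 6.26, and no gene of that list did after housekeeping centring.

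In the axon guidance list, 4 of 33 measured genes (12.1%) were higher and 1 (3.03%) lower, beside 3.47% and 2.08% of all measured genes. All 5 belonged to the semaphorins and their receptors. Their list had a median of -0.15, and after housekeeping centring it was -0.52, with 3 of 34 higher and 4 lower. Sema3e, a secreted guidance cue, had 5.59 in MEF and 9.50 at day 14, 15-fold higher. Sema3c, another secreted member, had 7.35 and 8.91, the membrane-bound Sema6a had 6.88 and 8.41, and the receptor gene Plxna2 had 5.53 and 6.54. Nrp2, a co-receptor for secreted semaphorins, went the other way, with 9.44 and 7.03. None of 18 measured netrin, slit and ephrin genes passed 2-fold, with differences from -0.68 to 0.95, although 2 were lower after housekeeping centring.

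Antiviral genes of the interferon response were higher at day 14 over much of the list. Of 62 measured members, 54 lay above 0, beside 21 of 27 housekeeping genes. Past 2-fold were 20 upward (32.3%) and 1 downward (1.61%), beside 3.47% and 2.08% of all measured genes. The list median was 0.61, against 0.07 over all measured genes, and 0.14 against -0.35 after housekeeping centring, where 13 of 63 were higher and 3 lower. Irf7, the factor that amplifies interferon production, had 6.58 in MEF, then 7.60, 8.17 and 9.31 on days 3, 7 and 14. Usp18, which restrains the interferon receptor, had 6.69 in MEF and 9.30 at day 14. Among the effectors, Bst2, which tethers budding virus to the cell, had 7.95 and 10.45. Rsad2, which encodes viperin, had 5.61 and 8.10, and Oasl1, of the oligoadenylate synthetase-like family, had 4.95 and 7.37. Ifit1, which binds viral RNA, had 6.91 and 9.05, and Isg15, a ubiquitin-like modifier, had 7.26 and 8.84. Of 6 measured interferon-induced GTPases, 3 passed 2-fold and none lay below 0: Iigp1 had 7.31 and 8.98, Irgm1 5.63 and 7.27, and Igtp 4.84 and 6.60. Samhd1, an enzyme that depletes nucleotides, was the one lower member, with 9.19 and 8.03. Near-identical relatives exist for Ifit1, Iigp1 and the Oas genes, so these single names are uncertain.

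The sensors of the pathway had a median of 0.21 and its receptors, kinases and transcription factors one of 0.25, against 0.62 for the antiviral effectors. Of 6 measured sensors of viral nucleic acid, Ifih1 had 7.65 and 8.78 and Zbp1 had 7.03 and 8.06, and the other 4 were within 2-fold. Ifnar2, a subunit of the interferon receptor, had 8.95 and 10.15. Ifnb1, which encodes interferon beta, was under the floor on both arrays, at 3.19 and 3.06. The day 14 array held the highest of the values in MEF, day 3, day 7 and day 14 for 43 of 62 members (69.4%). That share was 32.5% over all measured genes and 55.6% over the housekeeping list. Summed on the linear scale, the interferon list had 15272 in MEF, 22901 at day 14 and 26950 on the array labelled endogenous parvalbumin neurons. A level above MEF was thus not particular to day 14. Bst2 was already at 10.31 on the day 3 array and at 9.91 on the day 7 array. Among 18 measured genes of antigen presentation by MHC class I, 2 were higher and 0 lower, and the median of 0.28 became -0.22 after housekeeping centring, where none of 19 passed in either direction. The 2 were H2-K1, a class I heavy chain, with 8.27 and 9.69, and Psme2, a proteasome activator subunit, with 6.36 and 7.54. Of 18 chemokine genes, Cxcl10 and Ccl5, both ligands that draw T cells, were higher, with 5.92 and 8.41 for Cxcl10 and 5.88 and 8.27 for Ccl5. After housekeeping centring the chemokine median was -0.54, and 7 of 19 genes were lower against 2 higher. Cxcl14 and Cxcl15 were lower in the main setting, and Cxcl14 had 10.64 in MEF, then 8.48, 10.77 and 8.94 on days 3, 7 and 14.

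The interferon-stimulated response element is the sequence that interferon-activated factors bind, and it was searched in RefSeq promoters of build GRCm38.p6 as GAAA, any 2 bases and GAAA again, on both strands of the 250 bases before each start. It was found in 577 of 16990 genes with a promoter entry (3.4%) and in 18 of the 55 members of the interferon list with one (32.7%). Of the 16 members past 2-fold with an entry, 7 held it. The 150 bases before the start are shown for the 6 of these 7 genes that have a single annotated start and a match in that stretch, because they include Bst2, Rsad2, Ifit1 and Isg15, whose values are given above. They run 5' to 3' on the gene's strand, and capitals mark every match, overlapping matches joined.
Bst2, chr8:71537473-71537622, minus strand: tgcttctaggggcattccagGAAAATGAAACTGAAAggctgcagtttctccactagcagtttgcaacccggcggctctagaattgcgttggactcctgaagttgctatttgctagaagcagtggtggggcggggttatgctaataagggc
Rsad2, chr12:26456453-26456602, minus strand: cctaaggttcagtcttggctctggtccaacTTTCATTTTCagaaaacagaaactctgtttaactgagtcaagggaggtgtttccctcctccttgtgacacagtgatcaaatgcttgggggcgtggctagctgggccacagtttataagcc
Ifit1, chr19:34640739-34640888, plus strand: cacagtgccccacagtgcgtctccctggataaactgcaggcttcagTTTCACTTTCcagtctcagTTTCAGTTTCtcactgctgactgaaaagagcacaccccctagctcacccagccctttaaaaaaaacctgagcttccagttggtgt
Irgm1, chr11:48871421-48871570, minus strand: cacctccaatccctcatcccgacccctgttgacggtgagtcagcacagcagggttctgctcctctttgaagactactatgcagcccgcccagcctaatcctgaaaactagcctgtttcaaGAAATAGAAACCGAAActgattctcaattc
Igtp, chr11:58199406-58199555, plus strand: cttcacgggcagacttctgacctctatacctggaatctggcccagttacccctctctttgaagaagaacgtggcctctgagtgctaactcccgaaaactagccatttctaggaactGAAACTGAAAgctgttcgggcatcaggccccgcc
Isg15, chr4:156200819-156200968, minus strand: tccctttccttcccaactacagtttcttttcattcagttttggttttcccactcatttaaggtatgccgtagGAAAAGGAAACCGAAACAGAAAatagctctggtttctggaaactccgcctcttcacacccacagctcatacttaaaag
Bst2, Irgm1 and Isg15 carry overlapping matches, and Ifit1 carries 2 separate ones on the other strand. A match describes these letters and does not show binding. The motif share of a whole list, here and for the motifs below, follows from which genes were listed and uses no value of these arrays.

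**Figure D4:**
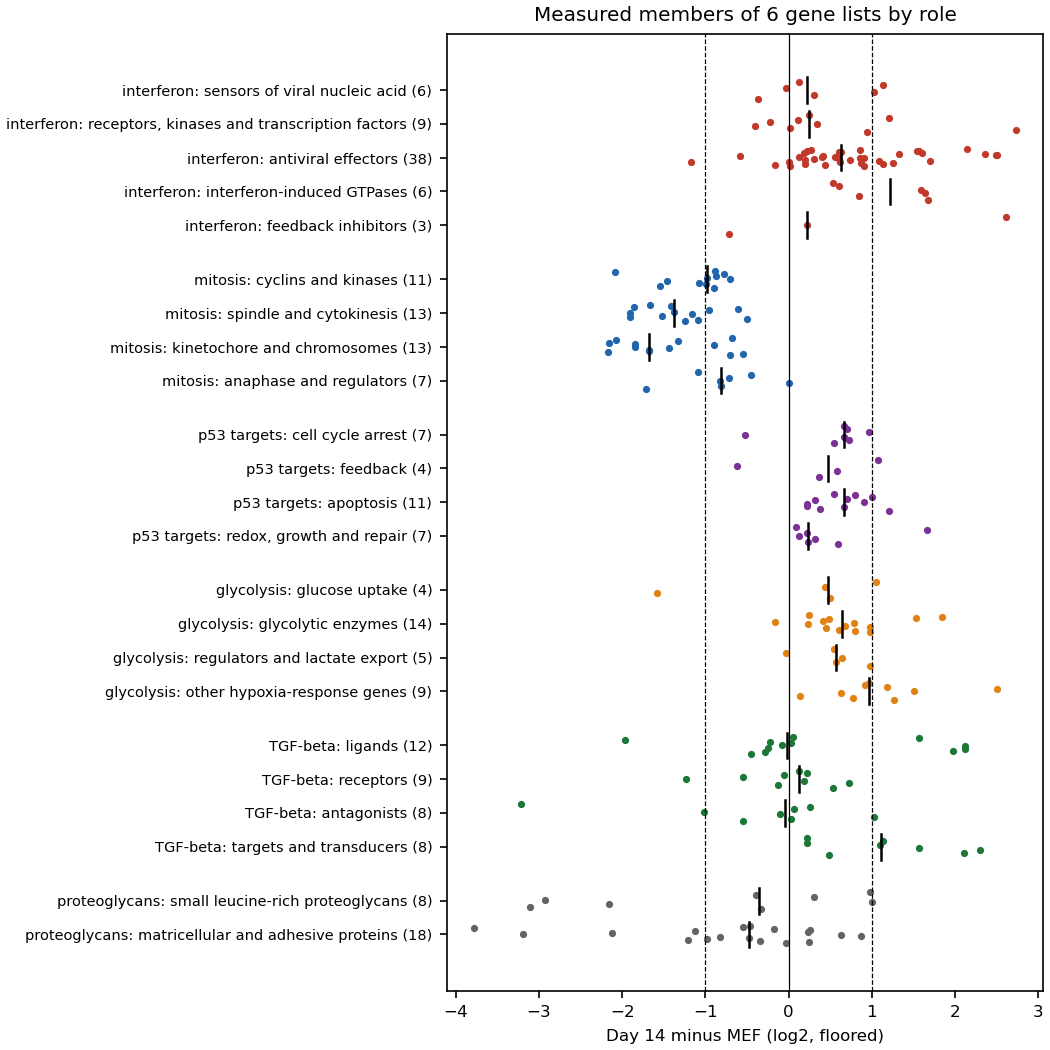
Each point is 1 measured gene, with its day 14 minus MEF difference (x axis, log2, floored) by list and role (y axis, number of measured genes in brackets); black bars are medians and dashed lines mark 2-fold. The mitosis groups lay to the left of 0, with medians from -1.68 to -0.81, and the interferon-induced GTPases lay to the right, with a median of 1.22.

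Genes of cell division were lower at day 14, with a median of -1.13 for mitosis and -0.39 for DNA replication. Of 44 measured mitosis genes, 25 (56.8%) passed 2-fold downward and 0 upward, beside 2.08% and 3.47% of all measured genes. All 44 had a difference below 0. After housekeeping centring the median was -1.57, and 39 were lower. A floor at the 75th percentile left 29 measured members, of which 14 were lower. Mki67, a proliferation marker, had 9.31 in MEF and 7.14 at day 14. Ndc80, a kinetochore protein that grips spindle microtubules, had 7.59 and 5.43, and Cenpe, a kinetochore motor, had 7.96 and 5.89. Ccnb2, a cyclin of the entry into mitosis, had 7.94 and 5.84. The cytokinesis genes Prc1 and Ect2 were each 3.76-fold lower, and Top2a, the topoisomerase that untangles chromosomes, was 3.61-fold lower. Kinetochore and chromosome genes had a median of -1.68, and 9 of 13 passed 2-fold. Cyclins and kinases had a median of -0.98, with 4 of 11 past 2-fold. Plk1, a mitotic kinase, had 7.36 and 6.50 and did not pass.

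In the replication list, 3 of 34 measured genes were lower and 0 higher. After housekeeping centring the median was -0.85, and 13 of 35 were lower, 6 of them origin licensing genes. The 3 of the main setting were all polymerase genes: Prim1, the small primase subunit, had 6.82 and 5.48, Pole had 6.26 and 5.19, and Pola1 had 6.76 and 5.75. None of 12 measured origin licensing genes passed 2-fold there, and Mcm6, a helicase subunit, had 7.05 and 6.17. The day 7 array did not lie between its neighbours in time. In 43 of 44 mitosis genes (97.7%) and 29 of 34 replication genes (85.3%), the day 7 value was above both the day 3 and the day 14 value, against 28.3% of all measured genes. Top2a, for example, had 8.51 in MEF, then 6.86, 8.47 and 6.66 on days 3, 7 and 14. The same order held in all 18 measured sterol synthesis genes, none of which differed 2-fold between day 14 and MEF.

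Promoters of many genes with peak expression in mitosis carry the cell cycle genes homology region and CCAAT boxes. TTTGAA, the letters searched for the former on both strands, was present in 16.1% of the 16990 genes and in 13 of 38 mitosis genes with a promoter entry (34.2%), among them 10 of the 22 past 2-fold. CCAAT was present in 38.7% of all genes and in 26 of 38 mitosis genes (68.4%). The windows of 3 genes are shown, those with the largest differences among genes with a single start and a TTTGAA match within 150 bases of it, with every match to either motif on either strand in capitals, to set beside their values.
Mki67, chr7:135716380-135716529, minus strand: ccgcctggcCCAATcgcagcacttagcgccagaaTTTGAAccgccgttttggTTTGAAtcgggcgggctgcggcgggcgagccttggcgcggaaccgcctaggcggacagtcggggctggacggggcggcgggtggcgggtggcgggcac
Top2a, chr11:99024190-99024339, minus strand: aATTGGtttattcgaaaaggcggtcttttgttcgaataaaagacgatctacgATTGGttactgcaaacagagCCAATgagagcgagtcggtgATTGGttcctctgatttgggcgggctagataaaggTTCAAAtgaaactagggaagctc
Smc2, chr4:52439071-52439220, plus strand: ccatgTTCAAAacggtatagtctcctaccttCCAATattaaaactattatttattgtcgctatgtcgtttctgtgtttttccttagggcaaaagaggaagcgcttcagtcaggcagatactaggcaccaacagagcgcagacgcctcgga
Smc2, a subunit of condensin, had 8.22 in MEF and 6.54 at day 14. Top2a carries several CCAAT letters on both strands, and Mki67 carries TTTGAA at 2 places.

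Targets of the tumour suppressor p53 lay mostly above their MEF values. Of 29 measured targets, 27 lay above 0, beside 21 of 27 housekeeping genes. Past 2-fold were 4 upward (13.8%) and 0 downward, beside 3.47% and 2.08% of all measured genes. The list median was 0.58. After housekeeping centring the median was 0.11, with 1 higher and 2 lower, and after quantile normalization 2 were higher. Sesn2, a stress sensor that restrains growth signalling, had 6.38 in MEF and 8.04 at day 14. Ei24 had 8.10 and 9.30, and Mdm2, the ligase that limits p53, had 9.32 and 10.39. Perp, a membrane protein linked to apoptosis and cell adhesion, had 6.52 and 7.52. Cdkn1a, the cyclin-dependent kinase inhibitor p21, had 10.43 and 11.09 and was within 2-fold, and Btg2 had 7.48 and 8.45. The day 14 array held the highest of the 4 values in MEF, day 3, day 7 and day 14 for 22 of the 29 (75.9%). That share was 32.5% over all measured genes, 55.6% over the housekeeping list and 61.3% over the respiratory chain list. The 5 cell cycle inhibitors of the senescence list were within 2-fold, Cdkn2a at 6.01 and 6.27. Of 11 measured secreted factors of that list, Il6, Igfbp5, Lif and Ereg were higher and Igfbp4 and Hgf lower. Ereg, a growth factor of the epidermal growth factor family, had 7.85 and 9.19, and Hgf, hepatocyte growth factor, had 7.76 and 6.54. After housekeeping centring 1 of the 11 was higher and 2 were lower.

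Matrix genes differed by class. Fibrillar collagens were within 2-fold in all 7 measured members, from -0.77 to 0.49, and 2 of them were lower after housekeeping centring. That centring left 1 of 21 collagen genes higher and 7 lower, with a median of -0.82. Among the other collagens, Col6a3 had 9.67 in MEF and 7.48 at day 14, 4.57-fold lower. Col14a1, which sits on the surface of collagen fibrils, was at least 5.70-fold higher, with 4.86 and 7.52, and Col4a1, a basement membrane chain, had 8.04 and 9.07. Proteoglycans and matricellular proteins had 8 lower (30.8%) and 1 higher (3.85%) of 26 measured genes, beside 2.08% and 3.47% of all measured genes. Their median was -0.43, and -0.91 after housekeeping centring, where 11 were lower and 0 higher. Aspn, a small proteoglycan that binds collagen, had 11.67 and 8.56. Fmod, fibromodulin, had 9.05 and 6.12, and Prelp, of the same family, had 10.95 and 8.78. Ogn, also of this family, was just past 2-fold in the other direction, with 10.58 and 11.58. Dcn, decorin, had 12.09 and 13.07 and did not pass. Tnn, which encodes tenascin N, had 8.79 and was under the floor at day 14, at least 13.7-fold lower. Tgfbi, a secreted protein induced by transforming growth factor beta, had 9.81 in MEF, then 7.84, 9.59 and 6.63 on days 3, 7 and 14. Of 20 measured remodelling genes, 4 were lower and 0 higher: Mmp13, the stromelysin gene Mmp3 with 10.64 and 9.48, the metalloproteinase inhibitor Timp3 with 10.93 and 9.87, and the cross-linking oxidase Loxl3 with 10.36 and 8.10.

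Surface markers of fibroblasts differed in both directions while mesenchymal transcription factors stayed within 2-fold. None of 9 measured factors passed, and their differences ran from -0.75 to 0.55, but 2 of 10 were lower after housekeeping centring. The whole mesenchymal list then had 2 of 21 higher and 7 lower. Pdgfra, a growth factor receptor of fibroblasts, had 11.57 and 10.24, the calcium-binding S100a4 had 7.71 and 5.76, and the hyaluronan receptor Cd44 had 8.04 and 6.91. The surface peptidases Dpp4 and Fap were higher, with 4.48 and 7.89 for Dpp4 and 7.23 and 9.18 for Fap. Vim, an intermediate filament protein, had 12.58 and 11.61. Of 20 smooth muscle and myofibroblast genes, Ankrd1 and Des were higher and 0 were lower, and the median of 0.25 became -0.20 after housekeeping centring. Des, the muscle filament desmin, had 5.25 and 7.09, whereas Acta2, smooth muscle actin, had 12.69 and 12.74.

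In transforming growth factor beta and bone morphogenetic protein signalling, ligands split and target genes were higher. Of 37 measured genes, 10 (27%) were higher and 4 (10.8%) lower, beside 3.47% and 2.08% of all measured genes. The list median was 0.13, or -0.29 after housekeeping centring, where 7 were higher and 6 lower. Tgfb2 had 7.34 in MEF and 8.91 at day 14, while Tgfb3 had 9.99 and 8.02. Bmp6 had 5.0 and 7.14, Gdf6 had 5.29 and 7.41, and Gdf10 had 5.30 in MEF, 9.67 at day 7 and 7.27 at day 14. Grem1, a secreted antagonist of bone morphogenetic proteins, had 9.66 and 6.45, 9.27-fold lower. Fst, an antagonist of activins, had 7.92 and 6.90, and its relative Fstl3 went the other way, with 7.92 and 8.95. The receptor gene Acvr2a was lower, with 9.31 and 8.09. Of 8 measured targets and transducers, 5 were higher and 0 lower, and the group median was 1.12, or 0.64 after housekeeping centring with 3 higher. Id2, a helix-loop-helix protein that blocks differentiation factors, had 6.70 and 9.0, Id3 had 7.48 and 9.59, and Id1 had 6.72 and 8.28. The transducer Smad3 had 6.82 and 7.95, and the inhibitor Smad7 had 6.64 and 7.74. Id2 and Id3 were already at 9.76 and 9.33 on the day 3 array.

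In the Wnt list, 3 of 38 measured genes (7.89%) were higher and 3 (7.89%) lower, beside 3.47% and 2.08% of all measured genes. The median of 0.03 was near that of all genes. After housekeeping centring 1 of 40 was higher and 7 were lower, and both medians were -0.35. Frzb, a secreted antagonist, had 6.30 in MEF and 9.07 at day 14, and Sfrp2, of the same family, had 9.27 in MEF, then 7.22, 9.77 and 7.51 on days 3, 7 and 14. Rspo2, an R-spondin ligand, had 7.33 and was under the floor at day 14, at least 4.97-fold lower. Its receptor gene Lgr5, described above, was also lower by its first probe set. Wnt4 had 5.41 and 6.55, and the receptor gene Fzd2 had 7.14 and 8.45. None of 7 measured Wnt target genes passed 2-fold, and they ran from -0.39 to 0.65.

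Genes of glucose use and the hypoxia response were higher. Of 32 measured genes, 29 lay above 0, beside 21 of 27 housekeeping genes, and 7 passed 2-fold upward (21.9%) and 1 downward (3.12%). The median was 0.66, and 0.18 after housekeeping centring, where 4 were higher and 1 lower. Hk2, which traps glucose as its phosphate, had 6.05 in MEF and 7.88 at day 14. Pfkl, a phosphofructokinase subunit, had 6.89 and 8.42, and Slc2a1, the glucose transporter GLUT1, had 9.38 and 10.42. Egln3 and Egln1, the oxygen-sensing hydroxylases that mark hypoxia-inducible factor for destruction, were both higher, with 6.65 and 9.15 for Egln3 and 8.10 and 9.61 for Egln1. Adm, the vasodilator adrenomedullin, had 9.36 and 10.54, and P4ha2, a collagen prolyl hydroxylase subunit, had 7.68 and 8.94. Txnip, which lowers glucose uptake, was the one lower gene, with 11.75 in MEF, then 5.19, 10.48 and 10.18 on days 3, 7 and 14. ACGTG, the core letters of the hypoxia response element, stood on either strand in 18 of 30 list promoters (60%) against 20.4% of all genes, and in 5 of the 8 past 2-fold. Of 31 measured respiratory chain genes, 29 lay above 0 and 2 were higher, Ndufb3 and Cox5b. Their median was 0.44, and -0.04 after housekeeping centring, where 0 were higher and 1 lower.

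In the list of endoplasmic reticulum and integrated stress responses, 5 of 36 measured genes were higher and 0 lower. The list median was 0.32, and -0.16 after housekeeping centring, where only Ddit4 of 37 was higher, at 1.13. After quantile normalization 3 of 36 were higher. The 5 were the transcription factor gene Atf5, the amino acid transporter gene Slc7a5, the lipoprotein receptor gene Vldlr, the growth inhibitor gene Ddit4 and the tryptophanyl-tRNA synthetase gene Wars. Ddit4 had 6.72 in MEF and 8.33 at day 14, and Atf5 had 7.16 and 8.39. None of 10 measured chaperones of the endoplasmic reticulum passed 2-fold, with differences from -0.19 to 0.56. TGATGCAA, the joint element of C/EBP and ATF factors, was found in 7 of 31 list promoters (22.6%) against 0.8% of all genes. Of the 5 genes past 2-fold, 3 had a promoter entry, and 1 of these held it. Of 27 immediate early and cAMP response genes, 3 passed upward and 0 downward. Their median was 0.44, or 0.02 after housekeeping centring, where 2 were higher and 2 lower. Nr4a3, an orphan nuclear receptor, had 4.97 and 7.18, the kinase gene Sik1 had 6.95 and 8.79, and Egr1 had 7.13 in MEF, then 5.62, 5.69 and 8.33 on days 3, 7 and 14. TGACGTCA, the cAMP response element, was in 1 of 20 promoters of that list (5%), against 2.3% of all genes.

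**Figure D5:**
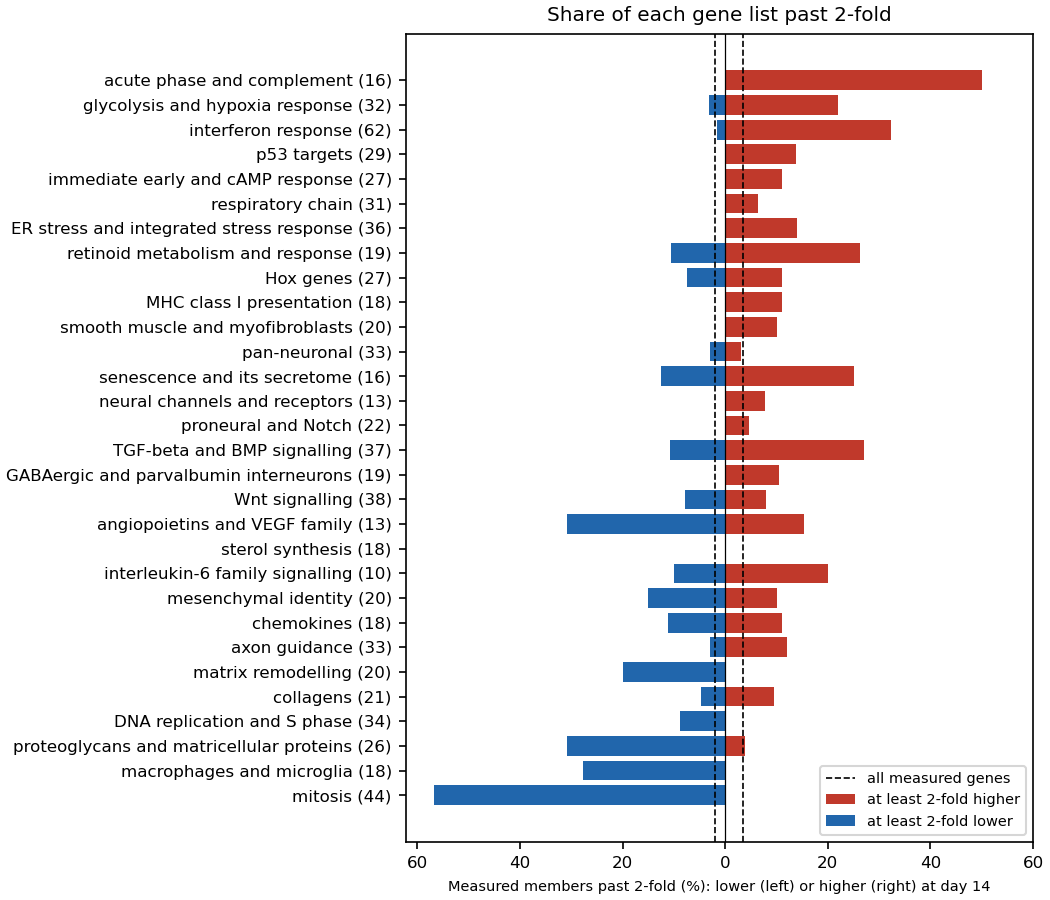
Share of measured members (x axis, percent) at least 2-fold higher at day 14 (red, to the right) or lower (blue, to the left) for each list with 10 or more measured genes (number in brackets), ordered by median difference; dashed lines are the shares over all measured genes, 3.47% and 2.08%. Mitosis had 56.8% of its members lower, and the interferon response had 32.3% higher.

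Retinoid genes and acute-phase genes were listed after the leading genes had been seen, so their counts are descriptions of a choice made on these values. Retinoic acid is made from stored vitamin A, acts through nuclear receptors and is removed by Cyp26 enzymes. Rarb, a retinoic acid receptor gene that is itself induced by retinoic acid, had 4.74 in MEF, then 7.87, 7.25 and 8.43 on days 3, 7 and 14, at least 10.7-fold higher. Lrat, which stores retinol as esters, had 4.18 and 8.25, and Dhrs3, which turns retinaldehyde back into retinol, had 7.49 and 10.33. Cyp26b1, which degrades retinoic acid, had 6.77 and 9.44, and Crabp2, a carrier that delivers it to the nucleus, had 7.61 and 9.0. Crabp1, the other carrier, was lower, with 9.93 and 8.91, and so was Dhrs9, with 6.28 and 4.99. In all, 5 of 19 measured genes (26.3%) were higher and 2 (10.5%) lower, beside 3.47% and 2.08% of all measured genes. The list median was 0.32. After housekeeping centring it was -0.16, with 4 higher and 4 lower. The 150 bases before the start of Rarb are shown because they hold the direct repeat known from this gene. It was searched as GTTCA, any 6 bases and GTTCA again, on both strands, a spacing set after this window had been read, and was found in 13 of the 16990 genes (0.0765%).
Rarb, chr14:16575477-16575626, minus strand: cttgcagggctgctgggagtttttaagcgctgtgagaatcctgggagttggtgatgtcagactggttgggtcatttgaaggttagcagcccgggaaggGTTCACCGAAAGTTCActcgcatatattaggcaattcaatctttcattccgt
Capitals mark the match, which lies 52 to 37 bases before the start. Cyp26a1 was the only other gene of the list with a match.

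Acute-phase proteins are secreted in response to interleukin-6 and related cytokines. Of 16 measured acute-phase and complement genes, 8 (50%) passed 2-fold upward and 0 downward, beside 3.47% and 2.08% of all measured genes. The list median was 0.96, and 0.48 after housekeeping centring, where 5 were higher and 1 lower. Summed on the linear scale, the list had 5933 in MEF, 18716 at day 14 and 32037 on the array labelled endogenous parvalbumin neurons. A level above MEF was thus not particular to day 14. Hp, haptoglobin, had 5.05 in MEF and 8.19 at day 14, and A2m, a protease inhibitor, had 5.63 and 8.67. Lcn2, lipocalin 2, had 8.98 and 11.71, and Saa3, a serum amyloid, had 10.12 and 12.69. The complement factor gene Cfb had 5.80 and 7.64, and the metallothionein genes Mt1 and Mt2 were 2.02-fold and 2.10-fold higher. In 15 of the 16 (93.8%), the day 7 value was above both the day 3 and the day 14 value, against 28.3% of all measured genes. Hp had 8.40 on the day 7 array. The mitosis, replication and sterol synthesis lists showed the same order, so it was not particular to acute-phase genes. Il6 itself had 6.59 in MEF, then 8.63, 7.84 and 8.86 on days 3, 7 and 14. Lif, a related cytokine, had 5.24 and 6.38, while its receptor gene Lifr was lower, with 9.02 and 7.81. The interleukin-6 family list had 2 higher and 1 lower of 10 measured genes, and 1 higher and 3 lower of 11 after housekeeping centring. Of 13 measured genes of the angiopoietin and vascular growth factor families, 2 were higher and 4 lower. Angpt1, a ligand that stabilises vessels, had 5.56 and 8.62, and Pgf, placental growth factor, had 4.84 and 7.64, while Angptl4, Angptl7, Nrp2 and Pdgfc were lower. Housekeeping centring gave 2 higher and 5 lower of 14.

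Markers of other cell types were read to show what else the cultures could hold. Of 18 measured macrophage genes, 5 passed 2-fold downward and 0 upward, 16 lay below 0, and the median was -0.58, or -1.05 after housekeeping centring, where 10 of 19 were lower. Summed on the linear scale, the list had an intensity of 2684 in MEF, then 773, 1226 and 1296 on days 3, 7 and 14, with 17 members above the floor in MEF and 16 at day 14. Lyz2, a lysozyme gene, had 9.78 and 8.06, Adgre1, the macrophage surface marker F4/80, had 7.06 and 5.35, and Fcer1g had 8.32 and 6.90. Ptprc, the leukocyte marker CD45, was under the floor on both arrays, with 4.79 and 3.19. Macrophage genes thus differed in the same direction as the proteoglycan and mitosis lists and opposite to the interferon and acute-phase lists. The chemokine list, with a median of -0.13 and 2 genes past 2-fold each way, was not opposite to them. The part of macrophages in those differences was not tested. Each other marker list had at most 1 member past 2-fold in each direction, but after housekeeping centring the endothelial and astrocyte lists had 2 lower each. Flt1 of endothelial cells and Gja1 of astrocytes were lower. Fabp7 of astrocytes, Pmp22 of Schwann cells, Fabp4 of adipocytes, Alpl of bone and Krt19 of epithelium were higher, and no member of the glutamatergic or skeletal muscle lists passed.

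None of 4 measured sex-linked genes differed 2-fold, and 2 were lower after housekeeping centring. Some position-identity genes passed 2-fold. Of 27 measured Hox genes, 3 (11.1%) were higher and 2 (7.41%) lower, beside 3.47% and 2.08% of all measured genes. The Hox genes past 2-fold were all from posterior groups. The list median was 0.30, and -0.23 after housekeeping centring, where 2 of 29 were higher and 3 lower. Hoxb9 had 6.97 in MEF and 8.55 at day 14, Hoxc8 had 7.68 and 9.23, and Hoxc10 had 5.67 and 6.87. Hoxd13 and Hoxa13, genes of the most distal limb, were lower, with 6.53 and 3.92 for Hoxd13 and 6.32 and 5.24 for Hoxa13. Of 167 measured microRNA genes, 3 (1.8%) were higher and 9 (5.39%) lower, beside 3.47% and 2.08% of all measured genes, and their median was -0.21. After housekeeping centring 0 of 191 were higher and 35 lower. Of 19 prolactin family genes listed, only Prl8a9 and Prl3a1 were measured. Prl8a9 had 5.37 in MEF, then 8.05, 7.34 and 9.58 on days 3, 7 and 14, and it was lower both in the sorted sample (7.61) and on the array labelled endogenous parvalbumin neurons (5.75). Fmo2 was the one higher gene among 3 measured flavin monooxygenases, and it had 8.34 in the sorted cells, below its unsorted day 14 value.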

How the data were processed

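Total RNA extracted with Trizol, 6 µg per sample, was made into biotin-labelled cRNA and hybridised to Affymetrix arrays (per the labels' protocols). One deposited table from the authors gave log2 intensities for 41345 probe sets and 6 arrays. The submitters' processing notes name Affymetrix Expression Console without a version. The summarisation, the normalization and the genome build are not stated in the sources used here. An array has no read depth, and 1 array per group limits the precision.

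Probe sets numbered below the first annotated one (5333) were left out as controls. Of the rest, 23521 had exactly 1 gene symbol in the platform annotation, 1814 had several and 10677 were unnamed here. Each gene was read from the probe set whose mean over the 6 arrays was highest, values were raised to the floor of 5.01, and the day 14 minus MEF difference was called at 2-fold. No p-value was computed. Python 3.11.15, pandas 2.3.3 and numpy 2.4.6 were used, and the counting was tested on simulated data. Promoters came from RefSeq, GRCm38.p6, and 16990 genes matched by symbol.

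The members, the 38 gene lists and the settings were chosen with earlier results of these data known, and 5 further lists, on retinoids, acute phase, interleukin-6, angiopoietins and sex-linked genes, were added after the values were seen. Named genes were the 15 largest differences in each direction (all probe sets above the floor in the same direction, predicted genes left out), up to 6 per list role by size of difference, and a preset list, of which the analysed genes were Cdkn1a, Col1a1, Col1a2, Dcx, Gad1, Gad2, Ifnb1, Map2, Mki67, Pvalb, Rbfox3, Slc32a1, Tubb3, Txnip and Vim. The text gives a selection of these, made after their values were seen. A few further genes were picked afterwards to show a contrast. Some genes of the lists are not analysed here. The 6 alternatives were quantile normalization, housekeeping centring, no floor, a floor at the 75th percentile (6.58), the mean of a gene's probe sets, and a 4-fold threshold.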

Additional observations from a re-analysis of the deposited data

Results flagged for a closer look

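Probe sets without exactly 1 gene symbol lie outside the comparison of named genes, and 199 of them were at least 2-fold higher at day 14 than in MEF while 240 were lower, among 5355 measured. These shares were 3.72% and 4.48%. At least 32-fold higher were 6 probe sets, with 4 distinct patterns of values, all numbered after the last named probe set. Their values lay between 3.97 and 7.72 in MEF, between 12.72 and 13.36 at day 14, and between 12.18 and 13.85 on the other 4 arrays. The array labelled endogenous parvalbumin neurons was among the high ones, and only the MEF array was low. The target of these probe sets is not known here. A probe set shared by the granzyme genes Gzmd and Gzme had 2.92 in MEF and 8.91 at day 14, and as it has several symbols it entered no count above.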

How the results depend on the processing

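The numbers of genes at least 2-fold higher and lower were 466 and 279. They were 401 and 339 after quantile normalization, 185 and 1084 after housekeeping centring, 661 and 503 without the floor, 271 and 140 when it was raised to the 75th percentile, 446 and 274 with the mean of probe sets, and 72 and 31 at 4-fold. The split between directions moved by over 10 percentage points only under housekeeping centring, where 14.6% of called genes were higher against 62.6%. Among the 15 leading genes in each direction and all members of the 43 lists, 195 genes were past 2-fold. Of these, 180 passed after quantile normalization, 151 after housekeeping centring and 195 without the floor. With the higher floor 144 passed, and 189 with the mean of a gene's probe sets. None changed sign under these 5. Removing the floor can only widen a difference, and neither a higher floor nor a shift of 0.48 can turn the sign of a 2-fold difference. Those outcomes were fixed in advance, so the signs are informative only for quantile normalization and the mean of probe sets. List medians changed sign in 20 of 43 lists after housekeeping centring, in 2 with the higher floor and in 0 under the remaining 3. No replicate could be left out, and no paired analysis was possible because each group has 1 array. The gap between cultures of 1 group is unknown, and differences of genes near the floor are compressed or bounds.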
